A study of Zea mays with 12 samples.

Results

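In developing maize seeds, 26 nuclear genes were both abundant and nearly even in transcript level across 2 stages and 2 genotypes. They were taken from 44146 nuclear gene models by their measured values. The level of a gene was its count relative to the library's total, in CPM (counts per 1000000 counts), averaged over the 3 libraries of each of 4 groups. A gene was kept where each of the 4 group means was at least 300 CPM and the largest mean was at most 1.4 times the smallest. The floor alone left 119 genes, of which 93 missed the limit on the ratio, so that the 26 were 21.85% of the abundant genes. The evenness of the 26 is therefore how they were chosen and not a result. The groups were seeds of *zmmsh7-2* mutant plants at 14 days after pollination (DAP), wild-type seeds at 14 DAP, mutant seeds at 7 DAP and wild-type seeds at 7 DAP. The labels call the mutant an MSH7 knockout, its sample titles name CRISPR, and they write its genotype as aa against AA for wild type. The labels do not say whether replicates came from separate plants or ears or whether seeds were pooled, so the spread between libraries may be technical. Library totals lay between 16854595 and 21932590 counts.

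A maize seed holds an embryo, an endosperm and maternal layers. In the days around 7 DAP the endosperm is still building its cell types, and by 14 DAP it fills with starch and zein storage proteins, so that much of the seed's messenger RNA is replaced in between. Genes whose messages stay level through such a change are used as reference genes, against which other transcripts are scaled. RNA-seq counts give each gene as a part of the whole library, so a level that is even in CPM is a constant share of counts and not a constant number of molecules per cell. In whole seeds, fewer cells of a type and less RNA per cell cannot be told apart. No source used here names the products of the 26 genes, and they are described by identifier. Without transcript lengths, a higher CPM than that of another gene is a larger share of counts and not more molecules.

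The levels of the 26 genes, as the mean of their 4 group means, ran between 324.2 and 2208 CPM, with a median of 504.4 CPM. Of these genes, 13 lay below 500 CPM, 6 between 500 and 1000 CPM and 7 at 1000 CPM or more. By mean CPM they ranked between the 19th and the 271st of the nuclear genes. Every library held between 5139 and 53392 counts of each, so counting error was small. The ratio of the largest to the smallest group mean lay between 1.04 and 1.38, with a median of 1.24. It was at most 1.1 in 2 genes and at most 1.2 in 11. Among the 93 other abundant genes the median ratio was 2.03 and the highest 18.6. Over the 12 single libraries, 23 of the 26 genes kept within a ratio of 1.4, and Zm00001d028998 reached the highest, 1.48.

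**Figure D1:**
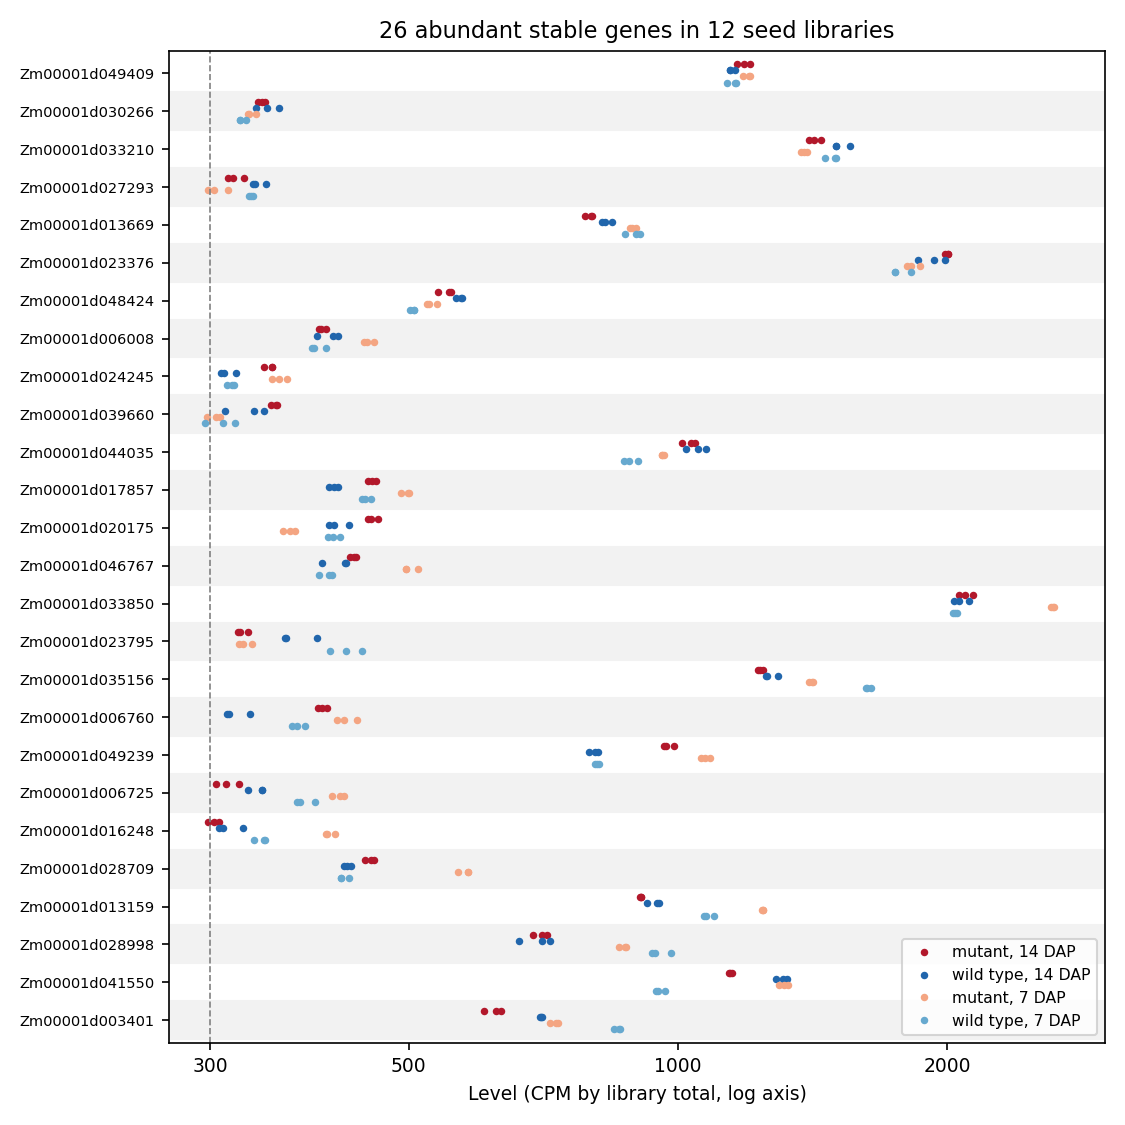
Level of each of the 26 genes (rows, ordered by the ratio of the largest to the smallest group mean, lowest on top) in the 12 libraries, in CPM on a log axis. Each point is a library, coloured by group, and the dashed line is the floor of 300 CPM. The libraries of Zm00001d049409 on top lie within a ratio of 1.06, while in Zm00001d041550 the wild-type libraries at 7 DAP stand below the other 9.

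The evenest gene was Zm00001d049409. It had 1186, 1204 and 1165 CPM in mutant seeds at 14 DAP, 1144, 1143 and 1158 CPM in wild-type seeds at 14 DAP, 1182, 1205 and 1201 CPM in mutant seeds at 7 DAP, and 1136, 1157 and 1162 CPM in wild-type seeds at 7 DAP. The mutant libraries lay above the wild-type libraries at both stages, and the stages overlapped within each genotype. What spread there was between its group means lay along genotype, which held 96.25% of the sum of squares of the log2 means, against 3.0% for stage. With the TMM scaling described below the genotypes were not called apart at either stage, and the sign was the other way (log2 fold change of mutant over wild type −0.04 at 14 DAP and −0.00 at 7 DAP, SE 0.02 each).

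Zm00001d030266, the next evenest, was near the floor. It had 343, 339 and 345 CPM in mutant seeds at 14 DAP, 337, 347 and 359 CPM in wild-type seeds at 14 DAP, 331, 337.5 and 331 CPM in mutant seeds at 7 DAP, and 324, 329 and 324 CPM in wild-type seeds at 7 DAP. Here stage held 85.1% of the spread between means, and the libraries at 14 DAP lay above those at 7 DAP within each genotype.

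Zm00001d033210 was the third evenest and also the third largest by counts. It had 1418.5, 1401.5 and 1445 CPM in mutant seeds at 14 DAP, 1504, 1503 and 1558 CPM in wild-type seeds at 14 DAP, 1372, 1382 and 1395.5 CPM in mutant seeds at 7 DAP, and 1462, 1501 and 1498 CPM in wild-type seeds at 7 DAP. Every mutant library lay below every wild-type library of its stage, and genotype held 88.4% of the spread.

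The gene with the most counts was Zm00001d033850. It had 2092, 2135 and 2061 CPM in mutant seeds at 14 DAP, 2064, 2118 and 2036 CPM in wild-type seeds at 14 DAP, 2612, 2629 and 2629 CPM in mutant seeds at 7 DAP, and 2041, 2049 and 2032 CPM in wild-type seeds at 7 DAP. The mutant at 7 DAP stood apart above the other 9 libraries, which lay close together. Zm00001d023376, the second by counts, had 2006.5, 2003 and 1989.8 CPM in mutant seeds at 14 DAP, 1933, 1991 and 1853 CPM in wild-type seeds at 14 DAP, 1803, 1863 and 1820.5 CPM in mutant seeds at 7 DAP, and 1823, 1747 and 1748 CPM in wild-type seeds at 7 DAP. In this gene the genotypes overlapped at both stages.

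At the limit on the ratio, Zm00001d003401 was just inside at 1.377 and Zm00001d031825 just outside at 1.410. At the floor, Zm00001d016248 was just inside, with a lowest group mean of 302.6 CPM, and Zm00001d018363 just outside, with 299.9 CPM and a ratio of 1.23. These neighbours differ little, so the list has no natural edge. Evenness within 1.4 was not confined to abundant genes, as the plot of the ratio against abundance shows. Among nuclear genes whose lowest group mean was between 1 and 3 CPM, 4.01% kept within the ratio, and the share was 7.93% from 3 to 10 CPM, 15.2% from 10 to 30 CPM, 25.4% from 30 to 100 CPM and 34.3% from 100 to 300 CPM. It was 19.4% of the 108 genes from 300 to 1000 CPM and 5 of the 11 genes above. Counting error is larger in scarce genes, and its part in these shares was not tested.

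**Figure D2:**
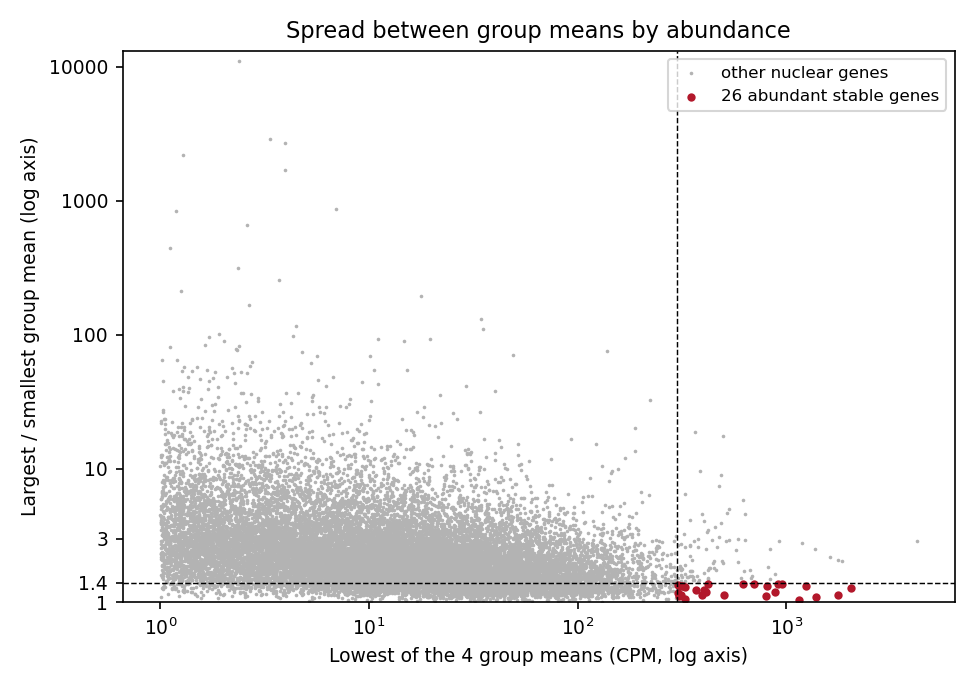
Ratio of the largest to the smallest of the 4 group means (log axis) against the lowest group mean (CPM, log axis) for the 19780 nuclear genes with a lowest group mean of at least 1 CPM. Dashed lines are the floor of 300 CPM and the ratio of 1.4; the 26 genes, in red, fill the lower right corner, and the 93 other abundant genes lie above them.

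The rule was also applied to 2 replicates of every group, and the ratio was taken in the third. With replicate 1 left out, 26 genes were chosen and 26 of them kept within 1.4 in the 4 libraries left out, with a median ratio of 1.23. With replicate 2 left out, 25 of 26 did (median 1.23), and with replicate 3 left out, 25 of 26 (median 1.25). The exceptions were Zm00001d003401, at 1.415 in replicate 2, and Zm00001d028998, at 1.406 in replicate 3. Of the 93 abundant genes that each pair of replicates did not choose, 0, 2 and 0 were within 1.4 in the replicate left out, with median ratios of 2.01, 2.02 and 2.08. Of the genes chosen, 26, 25 and 26 were among the 26 described here. Without replicate 2, Zm00001d018363 was chosen in place of Zm00001d028998, which was then 1 of the 2 unchosen genes within 1.4. Libraries of a group share stage and genotype and lay close together, so the third replicate nearly repeated the other 2. All 12 libraries had also chosen the 26 genes. The outcome was thus nearly fixed in advance, and nothing about evenness is read from it.

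**Figure D3:**
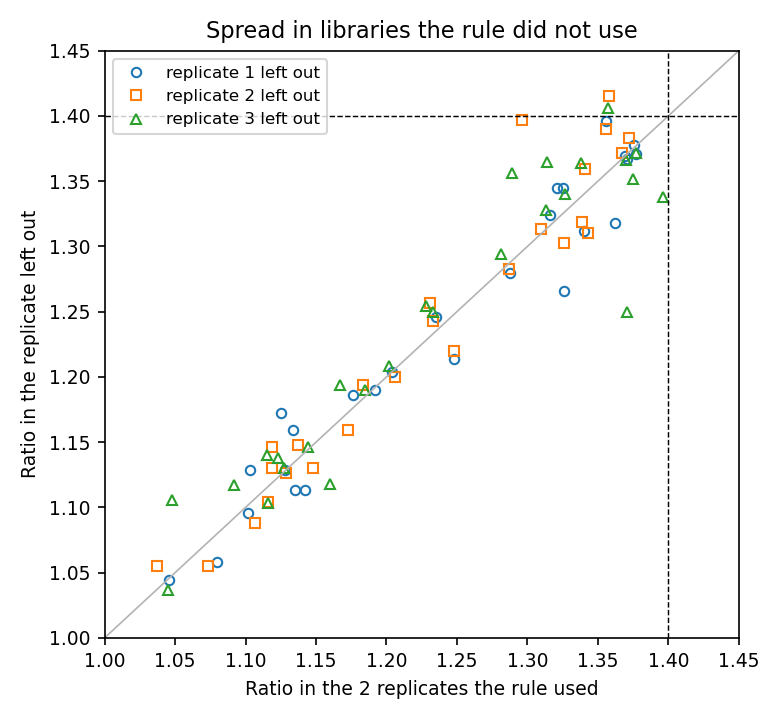
Ratio of the largest to the smallest group value for genes chosen from 2 replicates of every group (horizontal axis) against the ratio in the replicate left out (vertical axis), both without units; symbols mark which replicate was left out. The grey line marks equal values and the dashed lines the ratio of 1.4; points follow the grey line, and 2 of the 78 lie above 1.4.

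The spread between replicates of a group was not used by the rule. The coefficient of variation (CV) over the 3 libraries of a group was taken in each group, and each gene was given the median of its 4 values. Over the 26 genes this had a median of 1.502% and ran between 0.672% and 2.92%. The highest CV in a single group was 5.10%, that of Zm00001d039660 in wild-type seeds at 14 DAP. The CV of counting error, the inverse square root of the count, had a median of 1.01%. It assumes sampling error alone and is computed from the counts, not from the spread of 3 libraries, so the measures differ in kind. For the 93 other abundant genes the median was 1.59%, with 0.897% from counting error. Replicates of the 26 genes were thus about as close as those of abundant genes that changed. The median CV was 1.27% in mutant seeds at 14 DAP, 2.06% in wild-type seeds at 14 DAP, 1.19% in mutant seeds at 7 DAP and 1.39% in wild-type seeds at 7 DAP, and the wild type at 14 DAP was also the group of the highest median among the other abundant genes, 2.08%. With this little spread, small differences between group means stood apart from the replicates. In CPM by library totals, the mutant and wild-type libraries did not overlap in 20 of the 26 genes at 14 DAP, where they did not overlap in 68.5% of all genes tested, and in 23 at 7 DAP (73% of all genes). The stages did not overlap in 23 of the 26 in the mutant (81% of all genes) and in 16 in wild type (81.9% of all genes). Since the group means chose the 26, nothing is read from these counts.

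Which group was highest or lowest varied from gene to gene. The highest mean was that of mutant seeds at 14 DAP in 3 genes, wild-type seeds at 14 DAP in 5, mutant seeds at 7 DAP in 13 and wild-type seeds at 7 DAP in 5. The lowest was that of mutant seeds at 14 DAP in 7 genes, wild-type seeds at 14 DAP in 6, mutant seeds at 7 DAP in 4 and wild-type seeds at 7 DAP in 9. The largest part of the spread between means lay along stage in 13 genes, along genotype in 11 and along their interaction in 2. Among the 93 other abundant genes it lay along stage in 75, along genotype in 15 and along the interaction in 3. The limit on the ratio had sorted the genes by the spread of these same means, so nothing is read from this contrast. Summed, the 26 genes held 1.96% ± 0.004 of counts in mutant seeds at 14 DAP, 1.96% ± 0.013 in wild-type seeds at 14 DAP, 2.13% ± 0.009 in mutant seeds at 7 DAP and 1.99% ± 0.004 in wild-type seeds at 7 DAP (SD, n = 3 each). The geometric mean of the 26 levels was 624.1 ± 0.57, 620.8 ± 6.27, 674.0 ± 2.36 and 635.5 ± 3.48 CPM in the same groups in that order.

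The mutant was compared with wild type within each stage by edgeR's quasi-likelihood test over all genes, with TMM factors that scale each library to the bulk of its genes rather than to its total. Because group means had chosen the 26 genes, their calls are a description, and nothing is read from their number. At 14 DAP, 19 of the 26 genes passed an adjusted p of 0.05, 3 higher and 16 lower in the mutant, where 63.8% of all genes tested passed, 31.7% higher and 32.1% lower. The median log2 fold change of the 26 was −0.11, against 0.01 for all genes tested. At 7 DAP, 22 of the 26 passed, 13 higher and 9 lower, where 71.1% of all genes passed, 35.5% higher and 35.6% lower, and the medians were 0.04 for the 26 and 0.01 for all. Standard errors (SE) of the 26 were between 0.02 and 0.03 in both comparisons. SE and adjusted p rest on the spread between libraries, which may be technical, and may not cover variation between plants or ears. With library totals as the only scaling, the scale on which the genes were chosen, 15 passed at 14 DAP, 8 higher and 7 lower, where 66.9% of all genes passed (40% higher and 26.8% lower), and 23 passed at 7 DAP, 16 higher and 7 lower, where 71.6% did (39.7% higher and 31.9% lower).

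The highest called log2 fold changes of mutant over wild type at 14 DAP were those of Zm00001d006760 and Zm00001d049239. Zm00001d006760 had 400.4, 396 and 405 CPM in mutant seeds and 315, 313 and 333 CPM in wild-type seeds (log2 fold change 0.24, SE 0.03). Zm00001d049239 had 964, 989 and 969 CPM in mutant seeds and 808, 814 and 795 CPM in wild-type seeds (log2 fold change 0.19, SE 0.02). Both were also higher in the mutant at 7 DAP, with log2 fold changes of 0.12 and 0.34, and so was Zm00001d024245, named after its values were seen (0.07 at 14 DAP and 0.12 at 7 DAP). These 3 genes were the ones called higher at both stages.

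The lowest log2 fold changes were those of Zm00001d023795 at both stages. It had 323, 324 and 331 CPM in mutant seeds and 365, 364 and 394.5 CPM in wild-type seeds at 14 DAP, and 323, 334 and 327 CPM in mutant seeds against 408, 426 and 443 CPM in wild-type seeds at 7 DAP. The log2 fold changes were −0.29 and −0.43 in that order (SE 0.03 and 0.02). Zm00001d003401 followed at 7 DAP, at 735, 719 and 731 CPM in mutant seeds and 862, 859.9 and 849 CPM in wild-type seeds (log2 fold change −0.29, SE 0.02). In all, 7 genes were called lower in the mutant at both stages, and 2, Zm00001d023376 and Zm00001d049409, were called at neither. With library totals only, Zm00001d023376 passed at both stages and Zm00001d049409 at 7 DAP, and Zm00001d030266 was the 1 gene called at neither.

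Another 7 genes were called in opposite directions, all 7 higher in the mutant at 7 DAP and lower at 14 DAP. The largest contrast was in Zm00001d041550, which had 1142, 1148 and 1142 CPM in mutant seeds and 1287, 1311 and 1325 CPM in wild-type seeds at 14 DAP. At 7 DAP it had 1297.5, 1315 and 1327 CPM in mutant seeds against 946, 951 and 967 CPM in wild-type seeds. Its log2 fold changes were −0.28 (SE 0.02) at 14 DAP and 0.40 (SE 0.02) at 7 DAP. With TMM, Zm00001d028709 was called at 7 DAP and not at 14 DAP. It had 583, 583 and 568 CPM in mutant seeds and 428, 419.7 and 419.7 CPM in wild-type seeds at 7 DAP (log2 fold change 0.39, SE 0.02), against −0.00 (SE 0.03) with TMM and 0.08 with library totals at 14 DAP. The value with library totals at 14 DAP passed, and the libraries did not overlap on that scale. The share of all genes tested with each such pair of calls was not counted. Nothing is read from the numbers of genes called at both stages, at neither or in opposite directions. The count of opposite genes also rested on the scaling. With library totals only, 2 genes were higher at 7 DAP and lower at 14 DAP and 1 was the other way, and those higher at both stages were 6 and lower at both 4.

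**Figure D4:**
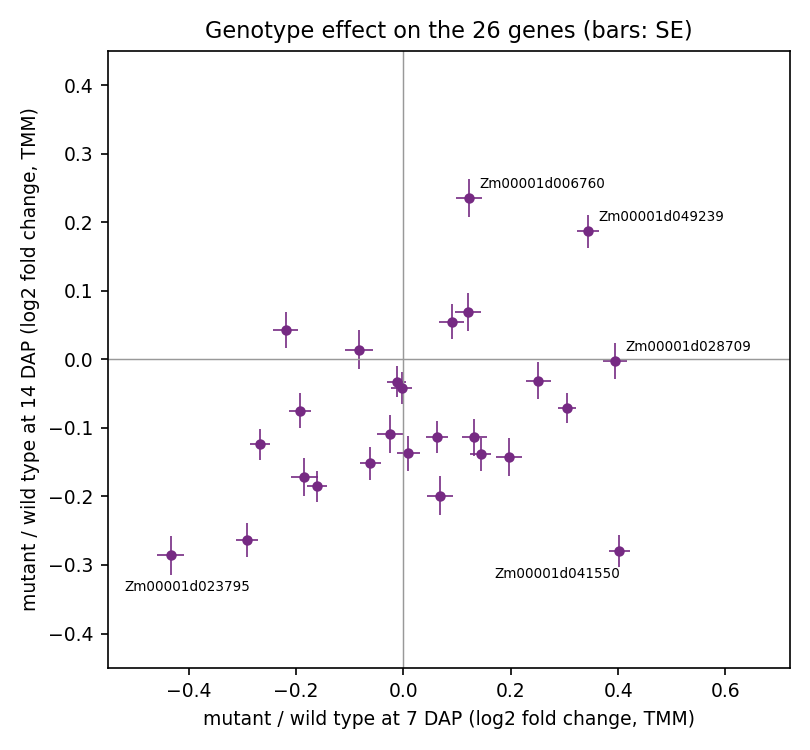
Log2 fold change of mutant over wild type at 14 DAP (vertical axis) against that at 7 DAP (horizontal axis) for the 26 genes, with TMM factors. Points are genes, bars are SE, and the comparisons share no library; 5 genes named in the text are marked, with Zm00001d041550 at the lower right (0.40 at 7 DAP and −0.28 at 14 DAP).

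The test of the difference between the stages' genotype effects called 18 of the 26 genes, 6 with a higher effect at 14 DAP and 12 with a lower one, where 46.8% of all genes were called, 22.8% higher and 24% lower. Without TMM factors, 6 were higher and 11 lower, where 47.3% of all genes were called. The lowest differences on the log2 scale were those of Zm00001d041550 (−0.68, SE 0.03) and Zm00001d028709 (−0.40, SE 0.03). The highest were those of Zm00001d020175 (0.26, SE 0.04) and Zm00001d023795 (0.15, SE 0.04). Zm00001d020175 had 453, 449.9 and 462 CPM in mutant seeds and 412, 407 and 429 CPM in wild-type seeds at 14 DAP, and 373, 362 and 369 CPM in mutant seeds against 406, 411 and 419 CPM in wild-type seeds at 7 DAP, so that its genotypes changed order in CPM between the stages. With TMM its genotype effect at 14 DAP, 0.04 (SE 0.03), did not pass, and its libraries overlapped there.

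Between stages the picture of the 26 genes turned on the scaling. With TMM factors, 24 of the 26 passed in the mutant at 14 DAP against 7 DAP, 20 higher and 4 lower, where 78.8% of all genes passed, 39.3% higher and 39.6% lower. In wild type 25 passed, 23 higher and 2 lower, where 80.5% of all genes passed, 40.8% higher and 39.8% lower. The median log2 fold change of the 26 was 0.16 in the mutant and 0.32 in wild type. With library totals only, 21 passed in the mutant, 6 higher and 15 lower (80.4% of all genes, 28.4% higher and 52% lower), and 16 passed in wild type, 6 higher and 10 lower (81.8% of all genes, 29.5% higher and 52.2% lower). The medians of the 26 were then −0.13 and 0.01, while the medians of all genes tested were −0.30 in both genotypes. With TMM these medians of all genes were −0.01 in the mutant and 0.01 in wild type. The change of scaling shifts all genes of a comparison by nearly the same amount. The sign was positive with TMM and negative with totals in 12 of the 26 in the mutant and 11 in wild type. Of these, 9 and 7 passed with both scalings. The share of all genes with such a change of sign was not counted. The TMM factors lay between 0.871 and 0.929 at 14 DAP and between 1.08 and 1.14 at 7 DAP. Stage coincides with the deposited table, so a difference between tables cannot be told apart from stage.

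**Figure D5:**
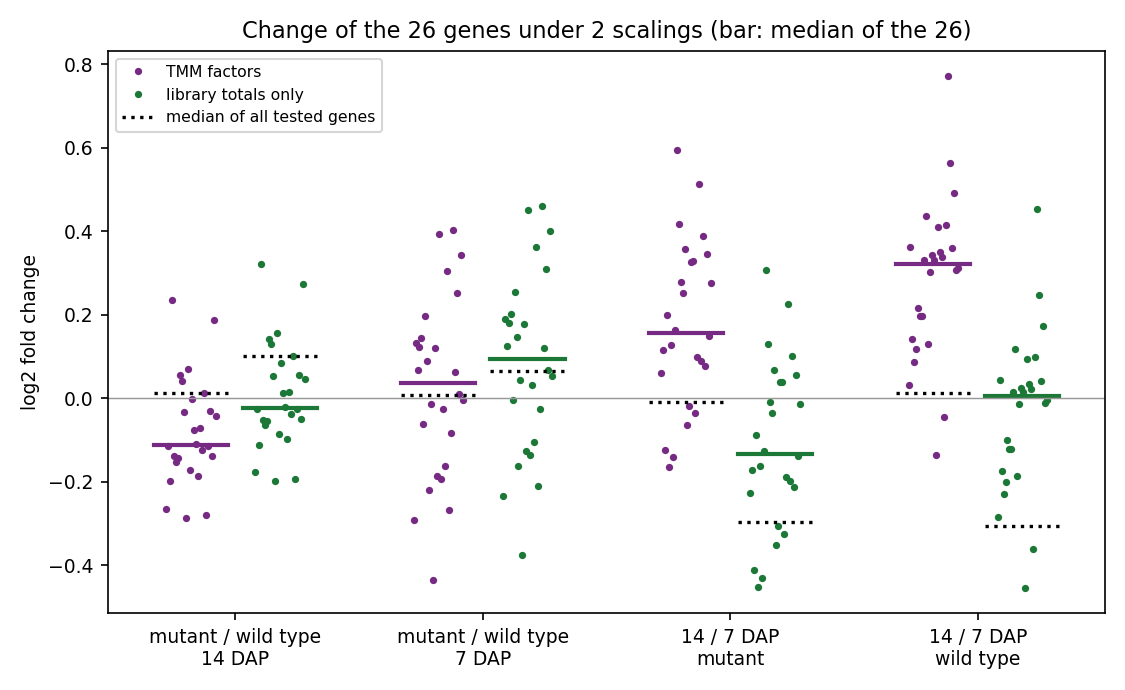
Log2 fold changes of the 26 genes (points) in 4 comparisons, with TMM factors (purple) and with library totals only (green). Thick bars are medians of the 26 genes and dotted bars medians of all genes tested; between stages the dotted bar lies at −0.30 with totals and near 0 with TMM, and the points move with it.

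The evenest genes and those with most counts are examples of this shift. Zm00001d049409, whose stages overlapped in CPM, had log2 fold changes between 14 and 7 DAP of 0.28 (SE 0.02) in the mutant and 0.31 (SE 0.02) in wild type with TMM, and of −0.01 and −0.00 with totals. Zm00001d030266 had 0.33 (SE 0.03) and 0.41 (SE 0.03) with TMM, against 0.04 and 0.09 with totals, and Zm00001d033210 had 0.33 and 0.35 (SE 0.02 each) against 0.04 and 0.03. For Zm00001d023376 the values were 0.42 and 0.44 (SE 0.02 each) against 0.13 and 0.12. Zm00001d033850 was at −0.04 (SE 0.02) in the mutant, which did not pass, and at 0.34 (SE 0.02) in wild type with TMM, against −0.32 and 0.02 with totals. The mutant value passed without replicate 2 of the mutant at 14 DAP (−0.06) and without any single wild-type library at 14 DAP (−0.04 each).

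The highest called changes with TMM were those of Zm00001d020175 and Zm00001d039660 in the mutant, at 0.59 and 0.51 (SE 0.03 each), and of Zm00001d041550 and Zm00001d044035 in wild type, at 0.77 and 0.56 (SE 0.02 each). These 4 were higher with library totals too, at 0.31, 0.22, 0.45 and 0.25 in the same order. In CPM, Zm00001d039660 had 351, 357 and 355 in mutant seeds at 14 DAP against 305, 308 and 298 in mutant seeds at 7 DAP. Zm00001d044035 had 1022, 1052 and 1074 CPM in wild-type seeds at 14 DAP against 869.7, 881 and 902 CPM in wild-type seeds at 7 DAP. Its libraries of the stages stood apart.

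The lowest were those of Zm00001d013159 and Zm00001d016248 in the mutant, at −0.16 (SE 0.02) and −0.14 (SE 0.03), and of Zm00001d028998 and Zm00001d035156 in wild type, at −0.14 and −0.04 (SE 0.02 each). The call of Zm00001d035156 was lost without replicate 1 of the mutant at 7 DAP (−0.04) and without replicate 1 (−0.05) or 3 (−0.04) of wild type at 7 DAP, and the value was −0.07, and passed, without replicate 3 of wild type at 14 DAP. Zm00001d013159 had 906, 908 and 910.2 CPM in mutant seeds at 14 DAP against 1240.0, 1246 and 1243 CPM in mutant seeds at 7 DAP, and in wild type 947, 953 and 923 CPM at 14 DAP against 1097, 1075 and 1070.2 CPM at 7 DAP. It fell in CPM in both genotypes, and with TMM it fell in the mutant and rose in wild type. Zm00001d028998 had 704.7, 719 and 665 CPM in wild-type seeds at 14 DAP against 983, 942 and 935 CPM in wild-type seeds at 7 DAP. Zm00001d035156 had 1253.5, 1258 and 1294 CPM in wild-type seeds at 14 DAP against 1625, 1621 and 1643 CPM in wild-type seeds at 7 DAP. With TMM, 18 genes were called higher at 14 DAP in both genotypes, 0 lower in both and 5 in opposite directions. With totals, 4 were higher in both, 9 lower in both and 1 opposite. The share of all genes tested with each pair of stage calls was not counted, so nothing is read from these numbers.

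Applied to TMM-scaled CPM, the same rule kept 29 genes, of which 15 were among the 26, that is 57.7% of the 26 and 51.7% of the 29. Of the 26, 17 kept within the ratio of 1.4, and 5 had a group mean under 300 CPM. Their ratios ran between 1.12 and 1.71 on that scale. The order within the list changed as well. Zm00001d013159, with a ratio of 1.37 by library totals, had the lowest ratio with TMM, 1.12, and Zm00001d016248 had 1.146 with TMM against 1.35 with totals. Zm00001d030266 had 1.355 with TMM against 1.07 with totals, Zm00001d033210 had 1.43 against 1.1 and Zm00001d041550 had 1.71 against 1.38. With TMM the highest group mean was at 14 DAP in 22 of the 26 genes, in wild type in 16 of these, and the lowest was at 7 DAP in 23, against 8 and 13 with totals. Zm00001d049409, with 1.25 on the TMM scale, kept within 1.4 under both.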

How the data were processed

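RNA-seq gene counts from 12 libraries of maize seed, 4 groups of 3, were used as deposited by the authors, in a table per stage, as whole-number counts without normalization. The tools listed in the submitters' processing notes are DESeq2, featureCounts 1.6.4, HISAT2 2.2.1, Trimmomatic 0.39 and StringTie 1.3.6, and the build is B73 RefGen_v4. No source used here states the annotation release, the strand setting or the treatment of multi-mapping reads, so paralogs among the 26 genes could share reads. Columns were matched to samples by description, with case kept. Each table listed 46430 identifiers, and identifiers outside the nuclear gene models held 0.0537% to 0.0924% of counts. The reference table named 0 of the 44146 nuclear gene models, so lists by product, tissue markers, promoter and protein features, and MSH7 itself were not analysed here.

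CPM was the count over the library total, times 1000000. Comparisons used edgeR 4.0.16 under R 4.3.3 (quasi-likelihood test, TMM, default filter by group, robust, Benjamini-Hochberg adjusted p below 0.05). Genotypes were fitted within a stage (6 libraries). Stage effects and the difference between genotype effects came from a fit of all 12. An SE is the absolute log2 fold change over the square root of F. Fits of some of the comparisons were tested on simulated data with a small share of changed genes, unlike the large shares called here. The shift between scalings was not simulated. Alternatives were RLE factors, library totals, no filter, DESeq2 1.42.0, a replicate block and each library left out. No pair of libraries within a group agreed within sampling noise (chi-square over degrees of freedom 1.67 to 2.44).

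Genes named are the 3 with most counts, the 3 with the smallest ratio, those at each threshold, and up to 2 higher and 2 lower per comparison (largest change, called, libraries not overlapping). The genes and lists were chosen with earlier results of these data known.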

Additional observations from a re-analysis of the deposited data

Results flagged for a closer look

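In 7 of the 26 genes the genotype effect differed between the stages by the test of the difference, and with TMM factors every mutant library lay above every wild-type library at 7 DAP and below every one at 14 DAP. The difference, the effect at 14 DAP minus that at 7 DAP on the log2 scale, was −0.68 for Zm00001d041550, −0.37 for Zm00001d033850, −0.34 for Zm00001d016248, −0.28 for Zm00001d013159 and −0.18 for Zm00001d044035. It was −0.27 for Zm00001d006725 and −0.25 for Zm00001d006008, both named after their values were seen. The opposite calls rested on the scaling in 5 of the 7 genes. With library totals only, Zm00001d041550 and Zm00001d006725 passed in opposite directions at both stages, while the other genes no longer passed at 14 DAP. On that scale Zm00001d033850 was at 0.02 (SE 0.02) at 14 DAP, and its libraries and those of Zm00001d044035 and Zm00001d006008 overlapped there. The differences themselves passed with library totals in all 7 genes. Of all genes tested, the difference passed in 46.8% with TMM factors and in 47.3% with library totals. The share of all genes with the whole pattern was not counted, so nothing is read from the number of genes that show it. The group means had chosen these genes, so the differences are a description.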

How the results depend on the processing

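The number of abundant stable genes was 75 with a floor of 200 CPM, 13 with a floor of 500 CPM and 11 with a ratio limit of 1.2, and lay between 26 and 27 when single libraries were left out. The counts of all genes called, with both directions together, stayed within 1.5 times under every alternative run. So did the counts among the 26 genes, except for stage in wild type. There 16 instead of 25 passed with library totals only. The directions among the 26 moved more. For stage in mutant, 20 higher and 4 lower with TMM became 6 higher and 15 lower with library totals only. For genotype at 14 DAP, 3 higher and 16 lower became 8 higher and 7 lower. The median log2 fold change of the 26 moved with scaling. With library totals only it was −0.0241 (genotype at 14 DAP), 0.0936 (genotype at 7 DAP), −0.132 (stage in mutant, reversed), 0.00527 (stage in wild type) and −0.0381 (difference). With libraries scaled to the geometric mean of the 26 genes, an alternative added after seeing the data, it was −0.0316, 0.00876, −0.0213 (reversed in sign), 0.0391 and, also reversed, 0.0391 in the same order. That scaling holds the mean log2 level of the 26 genes nearly equal in all libraries. Medians near 0 were thus fixed in advance, and nothing is read from them or their signs. For stage in the mutant and in wild type the median was 0.134 and 0.293 with RLE factors and 0.133 and 0.290 with DESeq2. Scaled to the 26 genes, 8213 genes were called higher and 11915 lower at 14 DAP in the mutant, and 7730 and 12859 in wild type. For the difference, 7704 were called higher and 4584 lower on that scale.

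When each library was left out in turn, the 26 genes had 16 to 22 calls and medians of −0.134 to −0.0983 for genotype at 14 DAP, 20 to 22 calls and 0.03 to 0.04 for genotype at 7 DAP, 23 to 25 calls and 0.15 to 0.16 for stage in mutant, 24 to 25 calls and 0.30 to 0.32 for stage in wild type, and 17 to 18 calls and −0.07 to −0.05 for the difference. The median CV lay between 1.18% and 1.6%. Between stages, Zm00001d049409 was at −0.0132 in the mutant and −0.00438 in wild type with library totals only, where neither value passed and both lay within 1 SE of 0. Same-numbered replicates did not deviate together (correlations between −0.076 and 0.125), so the numbers were not taken as pairs. With a replicate block, 20, 22, 25, 25 and 19 of the 26 genes were called for genotype at 14 DAP, genotype at 7 DAP, stage in mutant, stage in wild type and the difference. The cause of these shifts was not tested.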
